A study of Mus musculus with 24 samples.

Results

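Fkbp5, Klf9, Zbtb16, Sgk1, Cebpb, Cebpd, Ddit4, Dusp1, Errfi1 and Mt2 are genes that glucocorticoids are known to induce in many cell types. These 10 genes of 21000 protein-coding genes with curated RefSeq transcripts were chosen for that property, by a rule that uses no measured value. Earlier results of these data were known when the choice was made. For each gene, the H3K27ac peaks described here overlapped the gene body by at least 1 bp or lay within 50 kb of any of its RefSeq starts in mm10. By this rule 173 of 87600 peaks of the male vehicle list were near a member, 68 of 17482 at male day 4, 84 of 32188 at male day 6 and 56 of 20499 at male day 8. The female lists held 74 of 38861 (vehicle), 121 of 67503 (day 4), 191 of 123249 (day 6) and 161 of 81696 (day 8). As a share of the list, these peaks were 0.197%, 0.389%, 0.261% and 0.273% in males for vehicle and days 4, 6 and 8, and 0.190%, 0.179%, 0.155% and 0.197% in females.

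Myofibers were isolated with collagenase from the left quadriceps of C57BL/6 mice (C57BL/6J in the study's methods), and chromatin carrying H3K27ac, a histone mark of active promoters and enhancers, was pulled down and sequenced (ChIP-Seq). Mice were 10 weeks old when treatment began. Vehicle-treated males and females received DMSO in PBS. Weekly prednisone–treated males and females received 1 mg/kg prednisone intraperitoneally on 1 day of each week and the same DMSO vehicle on the days between, and their muscle was taken 4, 6 or 8 days after the last of 5 injections. The submitters sequenced 2 H3K27ac libraries and 1 input for each of the 8 groups and gave 1 peak list per group, so no value below has a replicate error and no difference between groups was tested. The 3 prednisone lists of each sex share 1 vehicle list as their comparison. In a bulk pull-down, more cells that carry the mark and more mark per cell cannot be told apart.

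Prednisone is converted in the body to prednisolone, which binds the glucocorticoid receptor (GR). The bound receptor enters the nucleus and attaches, usually as a dimer, to glucocorticoid response elements, short inverted repeats that can lie at a promoter or far from the gene. In skeletal muscle the receptor is known for shifting fuel use and protein turnover, and several members take part in that response or in its feedback. The core of the element was searched here as ACANNNTGT, and an extended motif as the same letters with G placed 2 bases before them and C placed 2 bases after them, where N is any base. Each form equals its own reverse complement, so the search covers both strands, and every match to the extended motif contains the core.

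Of 49 matches to the extended motif in the windows of the 10 genes, 37 lay in a peak of at least 1 list and 4 lay in a peak of all 8 lists. These 4 matches and 5 others near the remaining results are shown in capitals with 30 bases of mm10 reference on each side, read on the plus strand.
Fkbp5, upstream, chr17:28523148-28523220: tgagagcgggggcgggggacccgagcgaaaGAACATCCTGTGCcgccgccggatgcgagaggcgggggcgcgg
Klf9, upstream, chr19:23135063-23135135: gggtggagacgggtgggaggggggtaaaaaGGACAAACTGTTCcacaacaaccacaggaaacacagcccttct
Zbtb16, intron 2, chr9:48824902-48824974: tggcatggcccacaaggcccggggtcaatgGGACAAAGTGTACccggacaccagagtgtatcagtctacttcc
Zbtb16, intron 3, chr9:48723674-48723746: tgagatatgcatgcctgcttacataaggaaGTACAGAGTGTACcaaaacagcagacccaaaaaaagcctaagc
Fkbp5, intron 5, chr17:28420292-28420364: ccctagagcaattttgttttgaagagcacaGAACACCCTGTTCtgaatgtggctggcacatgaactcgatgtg
Ddit4, upstream, chr10:59974244-59974316: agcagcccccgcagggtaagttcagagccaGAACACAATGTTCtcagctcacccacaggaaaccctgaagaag
Dusp1, upstream, chr17:26509457-26509529: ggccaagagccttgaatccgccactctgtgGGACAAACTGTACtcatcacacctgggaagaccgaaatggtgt
Cebpd, downstream, chr16:15889804-15889876: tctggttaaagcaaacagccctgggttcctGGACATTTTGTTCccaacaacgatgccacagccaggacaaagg
Mt2, upstream, chr8:94171506-94171578: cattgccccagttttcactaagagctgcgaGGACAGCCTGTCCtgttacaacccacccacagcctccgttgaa
The first 4 are the matches inside a peak of every list. The others were each in a peak of some lists only. They are the intronic match of Fkbp5, for which intronic response elements are well known, and matches of Ddit4, Dusp1, Cebpd and Mt2. A match is a description of letters, and GR binding was not measured in these files.

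The 8 lists differed in depth and in the share of it that fell in peaks. They rested on 7.52 M tags at male day 4 to 50.5 M at male day 6, where 1 M is 1000000 tags. Of those tags 5.39% to 47.3% lay in peaks, lowest at male day 6 and highest at female day 6. Normalized tag counts, which are tags in a peak per 10 M tags of the library, were therefore read within a list. The scale used for this is the median over the 1435 coding genes whose start lay in a peak of all 8 lists (constant starts), which ranged from 32.0 normalized tags in the female vehicle list to 266 at female day 6. Of 10 myofiber markers, 6 had a start in a peak in the male vehicle list, 3 at male day 4, 6 at male days 6 and 8, 4 in the female vehicle list and 8 in each female prednisone list. The count thus moved in the same direction as that of the member starts from vehicle to day 4 in each sex. Mylpf and Ryr1 had one in all 8 lists and Myh1 in none. Of 15 markers of other cell types, 0 to 4 had a start in a peak in the male lists, 1 in the female vehicle list, 6 at female day 4 and 10 at female days 6 and 8. The summed start level of the 3 endothelial markers was 99.7 normalized tags in the male vehicle list and 1154 at female day 6. It was 0 in the female vehicle list, 148 at female day 4 and 377 at female day 8. The immune marker Cd68 had 245 at female day 6, and the 3 fibroblast markers summed to 247 there. Ptprc, Adgre1, Adipoq and Pax7 had no start in a peak of any list. The part of these differences in the results below was not tested.

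At the transcription starts, Klf9, Zbtb16, Sgk1 and Cebpd were in a peak of every list, whereas Fkbp5 and Cebpb were in a peak at female days 6 and 8 only. Among peaks with a fold over input of at least 4, being in every list held for Klf9 and Sgk1 only, because Zbtb16 was below it at male day 6 and in the female vehicle list, and Cebpd at male day 6. In the male vehicle list 8 of 10 members had a start in a peak, against 40.0% of all coding genes. The number was 7 at male day 4 (20.5% of coding genes), 6 at male day 6 (20.2%) and 6 at male day 8 (26.0%). In the female vehicle list it was 5 of 10 (15.2%), with 8 (45.9%), 10 (62.7%) and 10 (56.3%) at female days 4, 6 and 8. These counts and shares take any RefSeq start of a gene. With only the representative start (RefSeq Select) the members numbered 7, 6, 5 and 5 in males and 4, 7, 9 and 9 in females. Sgk1 was then in a peak of no list. The share of coding genes by the representative start alone, or at a fold of at least 4, is not given here. By any RefSeq start, the members were above the share of all genes in each of the 8 lists, by a count that carries no test. Being in a peak of all 8 lists held for 4 of 10 members and for 6.83% of coding genes. The pattern of Fkbp5 and Cebpb, present at female days 6 and 8 and nowhere else, held for 6.57% of coding genes. No member lacked a start peak in all 8 lists, a state seen in 33.6% of coding genes. Between the vehicle lists, 3 members (Ddit4, Dusp1 and Mt2) had a start in a peak in males and not in females, as did 26.0% of coding genes. No member had the opposite pattern, against 1.23%. A peak within 1 kb of a start was found for 9, 7, 8 and 7 members in the male lists, in the order vehicle, day 4, day 6 and day 8, against 54.9%, 31.8%, 32.0% and 35.5% of coding genes. In the female lists it was found for 6, 10, 10 and 10 members, against 29.5%, 54.3%, 69.9% and 62.5%.

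**Figure D1:**
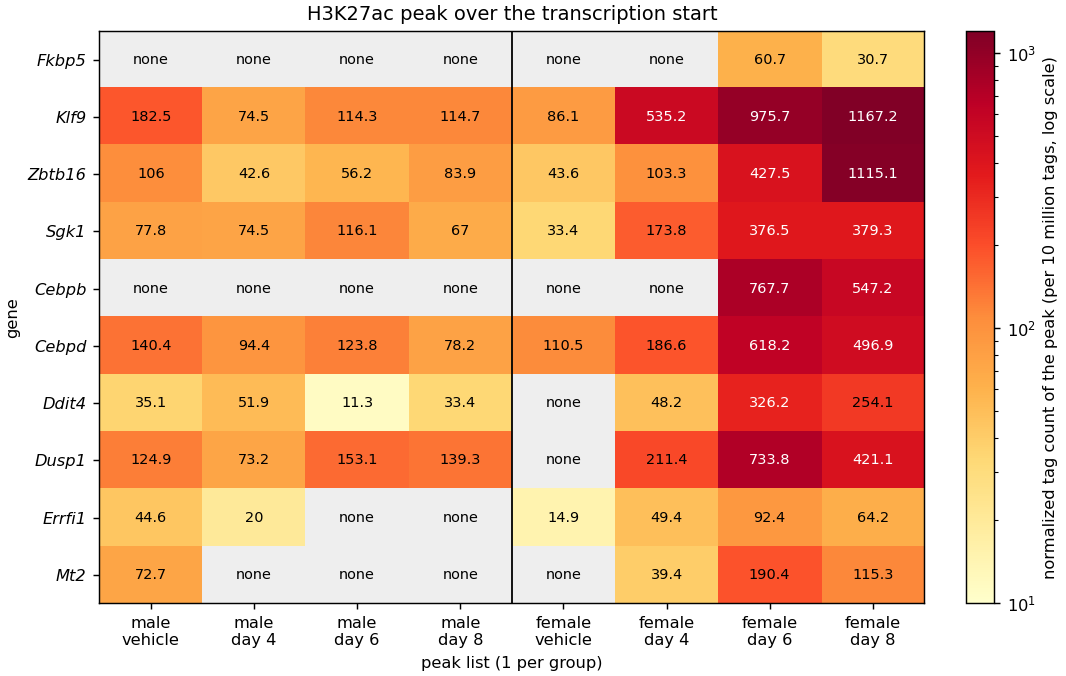
Normalized tag count of the peak over the transcription start of each of the 10 genes (rows) in each of the 8 lists (columns), on a log color scale, with the value printed in each cell and gray where no peak lay over a start. Klf9, Zbtb16, Sgk1 and Cebpd are filled in all 8 columns, and Fkbp5 and Cebpb in the last 2 columns only.

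Against the vehicle list of the same sex, some member starts entered peaks in females and some left them in males. The percentages below are over all coding genes, although only starts outside the vehicle peaks can enter and only those inside can leave. All 5 members without a start peak in the female vehicle list (Fkbp5, Cebpb, Ddit4, Dusp1 and Mt2) had one at days 6 and 8, and 3 of them, Ddit4, Dusp1 and Mt2, already at day 4. Entering a peak occurred in 31.1% (day 4), 47.7% (day 6) and 41.2% (day 8) of coding genes in females, beside 3, 5 and 5 of 10 members. In the female vehicle list 3189 of 21000 coding genes and 5 of 10 members already had a start peak and could not enter. No member left a peak in females, which 0.343%, 0.214% and 0.152% of coding genes did at days 4, 6 and 8. In males no member entered a peak at day 4 (2.34% of coding genes), day 6 (2.01%) or day 8 (3.18%). Mt2 left the peaks at all 3 days and Errfi1 at days 6 and 8. Leaving occurred in 21.9%, 21.7% and 17.2% of coding genes at male days 4, 6 and 8, beside 1, 2 and 2 of 10 members. Among starts in a male vehicle peak, 4591, 4565 and 3606 of 8395 coding genes left, beside 1, 2 and 2 of 8 members, which carries no test.

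Fkbp5 encodes a co-chaperone of Hsp90 that lowers the affinity of GR for its ligand and so acts in feedback on the hormone. Its single start, at chr17:28486149 on the minus strand, was in a peak of 60.7 normalized tags at female day 6 and 30.7 at female day 8. These were low values for their lists, 0.229 and 0.196 times the median constant start. No other list had a peak over the start, although within 1 kb of it the male vehicle list held 5.06 normalized tags and the female day 4 list 5.51. The acetylation around Fkbp5 lay instead upstream and inside the gene. A region at chr17:28510405-28526152, between 24.3 and 40.0 kb upstream, held a peak in all 8 lists. Its largest peak held 129.4, 35.9, 54 and 42.7 normalized tags in males for vehicle and days 4, 6 and 8, and 35.2, 121.9, 518.2 and 691.3 in females in the same order. At female day 8 a single peak of 14.6 kb covered most of it and ranked 106 by normalized tags among 81696 peaks. Within this region 3 stretches, of 242, 245 and 1076 bp, were inside a peak of every list, and the last of them contained the match GAACATCCTGTGC at -37.0 kb printed above.

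The upstream region of Fkbp5 held 5 of the gene's 11 matches to the extended motif, and the nearest coding start to each of these 5 was that of Armc12, so its assignment to Fkbp5 rests on the window. Inside the gene, a region at chr17:28418881-28430823 also held a peak in all 8 lists. Its largest peak had 78.4, 20, 50 and 14.3 normalized tags in the male lists and 18.9, 57.6, 179.9 and 351.1 in the female lists, in the order vehicle, day 4, day 6 and day 8. At female day 6 this region held separate peaks of 179.9, 34.3 and 53.9 normalized tags, and at female day 8 a single peak. The match GAACACCCTGTTC in intron 5, 65.8 kb downstream of the start and nearer to the start of Tulp1, was in a peak of 6 lists. It was outside the peaks at male day 4 and male day 8.

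Klf9 encodes a Krüppel-like transcription factor that responds quickly to glucocorticoids and thyroid hormone. Its start at chr19:23141226 was in a peak of 182.5 normalized tags in the male vehicle list, and of 74.5 (day 4), 114.3 (day 6) and 114.7 (day 8) in the male prednisone lists. The female values were 86.1 (vehicle), 535.2 (day 4), 975.7 (day 6) and 1167.2 (day 8). In terms of the constant starts of each list these were 1.75 to 3.40 times the median in males, and 2.69, 7.94, 3.67 and 7.45 times in females. The female day 4 peak ranked 10 of 67503 by normalized tags.

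The peak with most tags near Klf9 in the 4 male lists and the female vehicle list was not the one over the start. It lay upstream, and a stretch of 4111 bp at chr19:23133167-23137277 was inside a peak of all 8 lists. The upstream peak held 236.3, 159.6, 153.7 and 139.3 normalized tags in the male lists and 131.9 in the female vehicle list. It ranked 46 of 17482 peaks at male day 4 and 37 of 38861 in the female vehicle list. This stretch contained the match GGACAAACTGTTC, 6.13 kb upstream of the start. At female days 4 and 8 the upstream and start peaks were joined in 1 peak, of 19.4 and 23.5 kb. At female day 6 the start peak was 14.6 kb wide and a separate peak covered the upstream stretch.

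Zbtb16 encodes PLZF, a zinc finger repressor that is a sensitive marker of glucocorticoid exposure. The peak over its start at chr9:48836225 held 106, 42.6, 56.2 and 83.9 normalized tags in males for vehicle and days 4, 6 and 8. In females it held 43.6, 103.3, 427.5 and 1115.1 in the same order. The ratio to the median constant start was 1.00 at male day 4 and between 1.36 and 1.61 for male vehicle, male day 6, female vehicle, female day 4 and female day 6. It was 2.49 at male day 8 and 7.12 at female day 8. The start peak was 7.30 kb wide at female day 6 and 28.3 kb at female day 8. At female day 6 a separate peak of 812.1 normalized tags lay 6.422 to 27.009 kb downstream, where the female day 8 start peak also reached. Per kb the start peak held 58.5 normalized tags at female day 6 and 39.3 at female day 8, so their totals are not like for like.

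Away from the start, peaks spread over the introns of Zbtb16. A merged region of 80.9 kb, chr9:48705150-48786035, held peaks in all 8 lists. Its largest peak had 557.6 normalized tags in the male vehicle list, where it was 15.0 kb wide and ranked 14 of 87600 by tags and 4 by width. In the other male lists the largest peak there had 57.2, 156.9 and 82.9 normalized tags at days 4, 6 and 8. The female values were 55.6 (vehicle), 398 (day 4), 1660.5 (day 6) and 2356.1 (day 8). At female day 8 this peak was 52.5 kb wide, ranked 2 of 81696 by width and 6 by tags. At female day 6 it was 33.3 kb wide and ranked 33 by width. A separate female day 6 peak of 549.3 normalized tags, 117.531 to 131.011 kb downstream, lay within the span of the female day 8 peak.

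Zbtb16 had the largest number of stretches inside a peak of every list, 9 of the 24 found near the 10 genes. Of 7 matches to the extended motif in its window, all 7 were in a peak of the male vehicle list and of each female prednisone list, 5 in the female vehicle list and 2 at male day 4. The 2 matches in a peak of all 8 lists were GGACAAAGTGTAC in intron 2, 11.3 kb from the start, and GTACAGAGTGTAC in intron 3, 113 kb from it. A pair of overlapping matches at 96.0 and 95.9 kb, GCACACACTGTAC and GTACATACTGTAC, shares bases and is not independent.

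**Figure D2:**
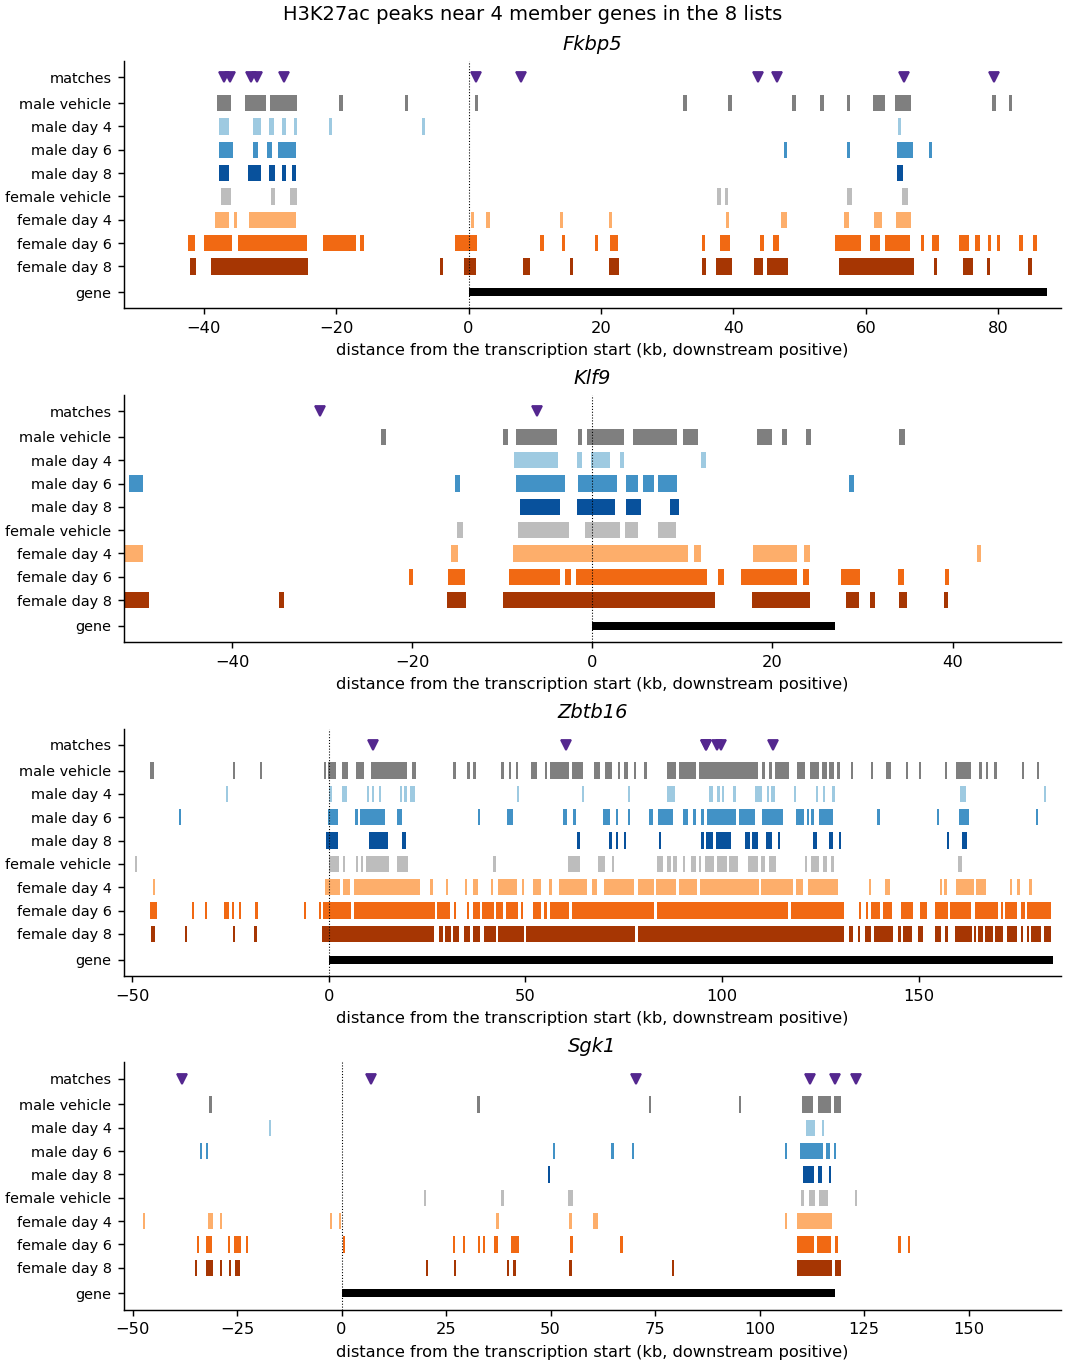
Peaks of the 8 lists (colored bars) along Fkbp5, Klf9, Zbtb16 and Sgk1, by distance in kb from the transcription start (for Sgk1 the farthest upstream of its 6 starts) with downstream positive, with the gene as a black bar and matches to the extended motif as triangles. Fkbp5 has peaks of all 8 lists both 24.3 to 40.0 kb upstream and 55.3 to 67.3 kb downstream of its start, Zbtb16 has them across its introns, and Sgk1 at its downstream starts.

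Cebpb and Cebpd encode C/EBP transcription factors that act early in the glucocorticoid response, in adipogenesis and in inflammation. The start of Cebpb, at chr2:167688915, was in a peak of 767.7 normalized tags at female day 6 and 547.2 at female day 8 and in none of the other 6 lists. These were 2.89 and 3.49 times the median constant start. Within 1 kb of the start, 2 peaks at female day 4 summed to 219 normalized tags and 1 peak at male day 6 held 34.0. The gene was nevertheless marked in every list, just past its 3′ end. A stretch of 887 bp at chr2:167690654-167691540 was inside a peak of all 8 lists. The peak there held 134.1, 59.9, 34 and 32.1 normalized tags in males for vehicle and days 4, 6 and 8, and 25.8 in the female vehicle list. At female day 4 it held 187.3 normalized tags over 9.18 kb and ended short of the start. At female days 6 and 8 it extended over the start, with widths of 14.1 and 15.1 kb. None of the 5 matches to the extended motif near Cebpb was in a peak of more than 2 lists.

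Cebpd was marked at its start, chr16:15887286, in every list. The values were 140.4, 94.4, 123.8 and 78.2 normalized tags in males and 110.5, 186.6, 618.2 and 496.9 in females, in the order vehicle, day 4, day 6 and day 8. Its ratio to the median constant start varied least in range among the members with a start peak in all lists, from 2.08 in the male vehicle list to 3.45 in the female vehicle list. In the female vehicle list the peak ranked 63 of 38861. The match GGACATTTTGTTC at 2.55 kb downstream was in a peak of 6 lists, outside the peaks at male days 4 and 8, and within intron 19 of the overlapping gene Spidr. The other stretch in all lists near Cebpd, of 961 bp and 23.9 kb upstream, lay over exon 1 of the neighbor Mzt2.

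Sgk1 encodes a serum- and glucocorticoid-induced kinase of the AGC family that regulates ion transport and has been linked to maintenance of muscle mass. RefSeq gives it 6 starts. The upstream 3, at chr10:21882184, chr10:21978672 and chr10:21986104, were in no peak of any list. The start at chr10:21994666 was in a peak of all 8 lists, that at chr10:21993890 in 7 and that at chr10:21992223 in 5. The largest peak over a start held 77.8, 74.5, 116.1 and 67 normalized tags in males and 33.4, 173.8, 376.5 and 379.3 in females for vehicle and days 4, 6 and 8. Its ratio to the median constant start was 1.04 to 3.17, lowest in the female vehicle list and highest at male day 6.

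The RefSeq promoter of the Sgk1 start at chr10:21993890 is shown because it was the only 1 of 14 promoters of 8 matched members with the extended motif. It spans chr10:21993640-21993939 in GRCm38.p6, plus strand, with the core match in capitals.
Sgk1 promoter: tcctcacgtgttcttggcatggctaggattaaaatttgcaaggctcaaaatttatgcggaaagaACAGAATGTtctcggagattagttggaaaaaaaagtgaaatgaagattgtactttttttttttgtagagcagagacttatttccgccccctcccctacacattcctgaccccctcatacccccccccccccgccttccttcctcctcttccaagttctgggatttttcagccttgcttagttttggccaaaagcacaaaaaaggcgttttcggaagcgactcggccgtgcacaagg
The full match, GAACAGAATGTTC, was in a peak of 7 lists and outside the peaks of the female vehicle list, the list in which this start was also in no peak. Among all 32851 promoters of this length 0.475% held the extended motif and 6.85% the shorter, which occurred in 2 of the 14 member promoters. The other was that of the Sgk1 start at chr10:21978672, which was in no peak.

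Ddit4 encodes REDD1, an inhibitor of mTORC1 that glucocorticoids raise in muscle. The peak over its start at chr10:59951770 held 35.1, 51.9, 11.3 and 33.4 normalized tags in males for vehicle and days 4, 6 and 8. In females there was none for vehicle and then 48.2, 326.2 and 254.1 at days 4, 6 and 8. The low value at male day 6 rested on a peak of 0.500 kb with 57 tags. Relative to the constant starts Ddit4 was lowest at male day 6, at 0.309 times the median, and highest at female day 8, at 1.62 times. No stretch near Ddit4 was inside a peak of all 8 lists. The region 17.6 to 32.9 kb upstream held a peak in each list, and its match GAACACAATGTTC was in a peak of 6 lists, all but male day 4 and female vehicle. The largest peak in the window at female day 6, of 683.5 normalized tags, lay over Dnajb12 and not over Ddit4.

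Dusp1 encodes a phosphatase that switches off MAP kinases and carries part of the anti-inflammatory action of glucocorticoids. The peak over its start at chr17:26508472 held 124.9, 73.2, 153.1 and 139.3 normalized tags in males and 211.4, 733.8 and 421.1 at female days 4, 6 and 8. In the female vehicle list the start was in no peak, but a peak of 32.3 normalized tags lay within 1 kb of it. The male day 8 peak was 7.25 kb wide and ranked 11 of 20499 by width and 35 by tags. In units of the median constant start Dusp1 was at 1.72 to 4.18 times in the male lists and 2.69 to 3.14 in the female prednisone lists. The match GGACAAACTGTAC, 1.02 kb upstream of the start, was in a peak of the 3 female prednisone lists only. The male peaks over the start ended between chr17:26509200 and chr17:26509398, and the match begins at chr17:26509487.

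Errfi1 encodes MIG6, a feedback inhibitor of EGF receptor signaling. Its start was in a peak of 44.6 normalized tags in the male vehicle list, 20 at male day 4, 14.9 in the female vehicle list, and 49.4, 92.4 and 64.2 at female days 4, 6 and 8. At male days 6 and 8 no peak lay over a start, but peaks of 6.53 and 14.0 normalized tags lay within 1 kb. In every list with a peak over it, Errfi1 was below the median constant start, at 0.348 to 0.733 times. The peak with most tags near Errfi1 was centered 47.0 to 49.4 kb downstream, within Park7, in each of the 8 lists, with 165.1 normalized tags in the male vehicle list and 887.2 at female day 6. Of its 3 matches to the extended motif 2 were in any peak, and those only at female days 6 or 8.

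Mt2 encodes a metallothionein, a small metal-binding protein whose gene also responds to zinc. Its start at chr8:94172618 was in a peak of 72.7 normalized tags in the male vehicle list and in none of the 3 male prednisone lists. In females it was in none for vehicle and then in peaks of 39.4, 190.4 and 115.3 normalized tags at days 4, 6 and 8. These female peaks were 0.585, 0.717 and 0.736 times the median constant start, and the male vehicle peak was 1.08 times. A peak of the male vehicle level, scaled by the constant starts, would have held 34.6 (male day 4), 199 (day 6) and 117 (day 8) tags, against lowest peaks of 5.00, 19.0 and 12.0 tags in those lists. The same scaling of Errfi1 gives 122 tags at male day 6 and 71.6 at male day 8. The lowest peak of a list is not the limit at a given place, because calling also needed a fold over input of at least 2. Whether such peaks would have been called was not tested. The window of Mt2 is shared with Mt1, Mt3, Mt4 and Nup93, and the 1 peak in it at male day 4 and at male day 6 lay over Mt1, and the 1 peak at male day 8 over Nup93. The match GGACAGCCTGTCC at -1.08 kb was in a peak of the same 4 lists as the start.

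Peak tags rise with peak width, so members were compared with each other per kb. In the female vehicle list the order was Sgk1 at 23.8 normalized tags per kb (95% interval 19.2 to 29.2), Klf9 at 22.0 (19.3 to 25.0), Cebpd at 20.9 (18.7 to 23.4), Errfi1 at 18.1 (13.0 to 24.5) and Zbtb16 at 16.3 (13.6 to 19.6). Each neighbor in this order overlapped the next by these exact Poisson intervals, which cover counting error only. At female day 8 Cebpd was highest, at 66.5 (63.6 to 69.5), followed by Klf9 at 49.8 (48.3 to 51.2), Dusp1 at 48.0 (45.8 to 50.4) and Sgk1 at 46.2 (43.9 to 48.6). Cebpd stood apart from the next value by more than counting error, and the following 3 overlapped in turn. Fkbp5 was lowest in that list, at 17.4 (14.4 to 20.8), below Errfi1 at 31.1 (27.4 to 35.2) and Mt2 at 31.5 (28.7 to 34.6), which overlapped each other.

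Around the genes, every member had at least 1 peak in its window in each list. A peak in the window was found for 87.1% of coding genes in the male vehicle list and 65.5% (day 4), 73.4% (day 6) and 68.9% (day 8) in the other male lists. In females the shares were 79.7%, 85.7%, 87.3% and 83.7% in the same order. The numbers per member ranged from 1, at Mt2 in the 3 male prednisone lists, to 48, at Zbtb16 in the male vehicle list. The share of the window that lay in peaks was above the median of all coding genes for all 10 members in the male vehicle list and the 3 female prednisone lists. It was above for 9 in the other 4 lists, with Mt2 the exception. The median over members was 15.2% in the male vehicle list against 3.82% over all coding genes, and 5.23% against 1.05% in the female vehicle list. At female day 6 it was 36.9% against 8.16%, with Zbtb16 at 68.3%, Dusp1 at 57.9% and Sgk1, the lowest, at 9.66%.

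**Figure D3:**
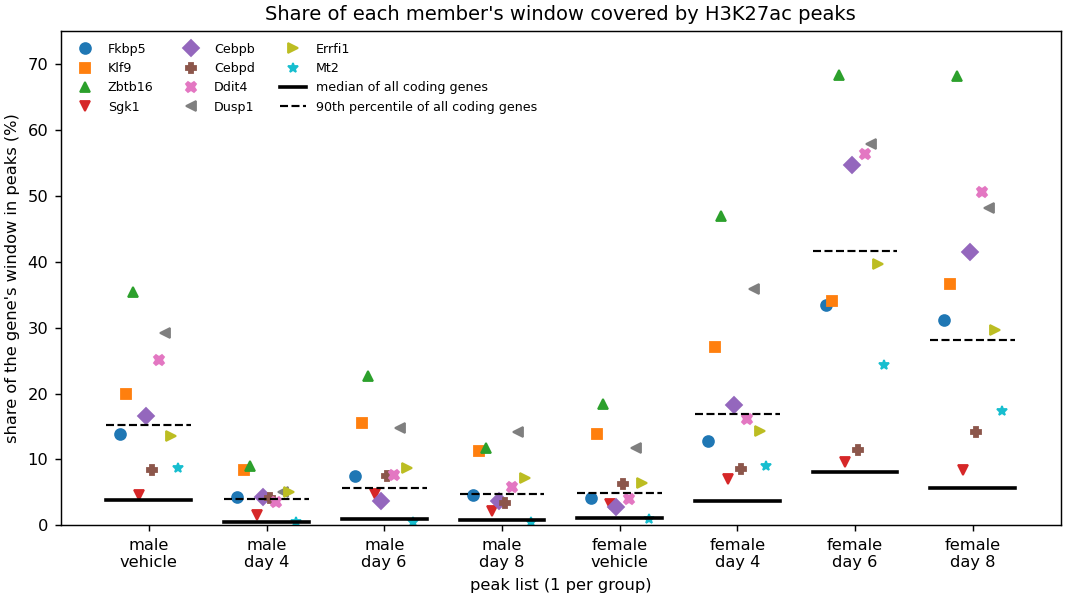
Share of the gene's window that lay in peaks, in percent, for each of the 10 genes (symbols) in each of the 8 lists. Solid lines give the median and dashed lines the 90th percentile of all coding genes, and Zbtb16 is above the dashed line in every list, at 35.4% in male vehicle and 68.3% at female day 6.

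Peaks absent from the vehicle list of the same sex were a smaller part of the peaks near the members than of all peaks, in each of the 6 prednisone lists. Near the members 83 of 121 peaks at female day 4 had no vehicle counterpart (68.6%, against 81.9% of all peaks of that list). At female day 6 it was 151 of 191 (79.1% against 89.5%) and at female day 8 127 of 161 (78.9% against 84.2%). With every list reduced to the 17482 peaks with most tags, the new peaks were 21 of 51, 31 of 62 and 26 of 52 at female days 4, 6 and 8, so they no longer made up most of the peaks near the members. The share over all peaks of the reduced lists is not given here, so whether this drop is particular to the members cannot be told. In males it was 15 of 68 at day 4 (22.1% against 45.4%), 27 of 84 at day 6 (32.1% against 63.7%) and 7 of 56 at day 8 (12.5% against 46.9%). The share of vehicle peaks found again was larger near the members than over all peaks in each of the 6 lists, which carries no test. In females 62, 67 and 69 of the 74 vehicle peaks overlapped a peak at days 4, 6 and 8, or 83.8%, 90.5% and 93.2%, against 36.6%, 39.6% and 41.0% of all vehicle peaks. In males 41, 55 and 44 of 173 did (23.7%, 31.8% and 25.4%), against 10.3%, 13.1% and 12.1%. Zbtb16 alone gave 28 of the 74 female vehicle peaks (25, 27 and 27 found again) and 48 of the 173 male ones (15, 19 and 14). Overlap by 1 bp also depends on how much sequence lies in peaks. At female days 4, 6 and 8 peaks covered 21.2%, 39.3% and 35.7% of the members' windows, against 2.61%, 5.84% and 4.03% of the genome. Shares near the members and over all peaks are therefore not like for like.

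**Figure D4:**
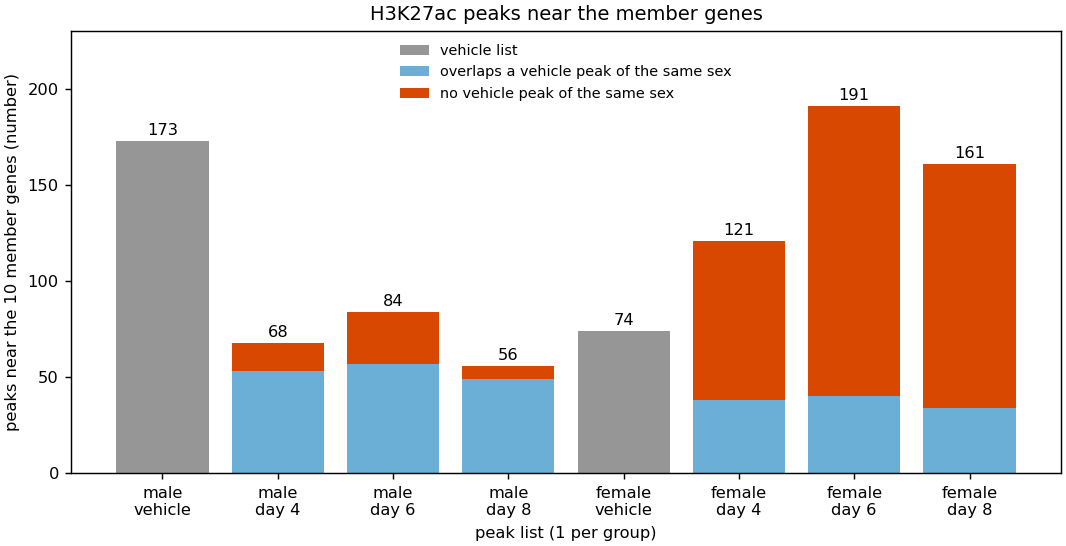
Number of peaks near the 10 genes in each of the 8 lists, split in the prednisone lists into peaks that overlap a vehicle peak of the same sex (blue) and peaks that do not (orange). The female prednisone bars are mostly orange (83 of 121, 151 of 191 and 127 of 161), and the male bars are mostly blue. In lists of equal length the female numbers are 21 of 51, 31 of 62 and 26 of 52, with no share over all peaks of those lists beside them.

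The day 4 peaks without a vehicle peak, called prednisone-responsive enhancers (PREs) in the study, numbered 83 near the members in females and 15 in males. Of the 83 female PREs, 65 overlapped a peak at day 6 (78.3%, against 50.3% of all female PREs), 65 a peak at day 8 (78.3% against 43.6%) and 59 peaks at both days (71.1% against 37.7%). They included peaks over the starts of Ddit4 and Mt2 and a peak of 77.4 normalized tags in intron 1 of Klf9, all present at both later days. The window of Zbtb16 held 21 of the 83 female PREs. Peaks covered more of the members' windows than of the genome, as given above, so these shares too are not like for like. Of the 15 male PREs 3 overlapped a peak at day 6 (20.0% against 5.84%) and 1 of those a peak at day 8 (6.67% against 5.01%), and all 3 were in introns of Zbtb16. Of the 15 male PREs the one with most tags, 49.2 normalized tags, lay in Tmem189, a neighbor of Cebpb. Between the sexes, 5 of 15 male PREs (33.3%, against 19.5%) overlapped a female day 4 peak and 7 of 83 female PREs (8.43%, against 5.88%) a male day 4 peak.

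The peaks near the members held more matches to the extended motif per length than the peaks of the whole lists. In the male lists they held 12.0, 13.0, 12.0 and 13.0 matches per 100 kb of peak for vehicle and days 4, 6 and 8, against 2.27, 1.57, 2.43 and 2.14 over all peaks. In the female lists the values were 10.8, 8.02, 6.16 and 6.50, against 2.12, 2.21, 2.26 and 2.32. The shorter motif differed less, at 38.1 to 52.1 matches per 100 kb near the members and 21.9 to 34.9 over all peaks. The matches themselves were few, 28, 8, 16 and 11 in the male lists and 11, 22, 33 and 31 in the female lists, and Fkbp5 and Zbtb16 gave 15 of the 28 in the male vehicle list. Measured instead over 300 bp at the center of each peak, 8 of 173 member peaks held the extended motif in the male vehicle list (0.650% of all peaks) and 1 of 74 in the female vehicle list (0.610%). At female day 4 it was 1 of 121 (0.643%), at day 6 1 of 191 (0.635%) and at day 8 3 of 161 (0.660%). The female vehicle, day 4 and day 6 counts were thus 1 peak each, and at female day 6 the member share was below that of all peaks. At male days 4, 6 and 8 it was 4 of 68 (0.464%), 4 of 84 (0.749%) and 3 of 56 (0.649%).

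The stretches inside a peak of all 8 lists were searched separately. Near the members there were 24 such stretches, 20.3 kb in all, and 4 of them held the extended motif, 1 at Fkbp5, 1 at Klf9 and 2 in Zbtb16. Over the genome there were 3421 such stretches, of which 1.14% held the motif, with 40 matches in 2157 kb. The density was 19.7 matches per 100 kb near the members and 1.85 over the genome, and 4 of the 40 matches lay near the 10 genes. By number of lists, 12 of the 49 matches were in no peak, 7 in a peak of 1 list, and 4 each in peaks of 7 and of 8 lists.

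**Figure D5:**
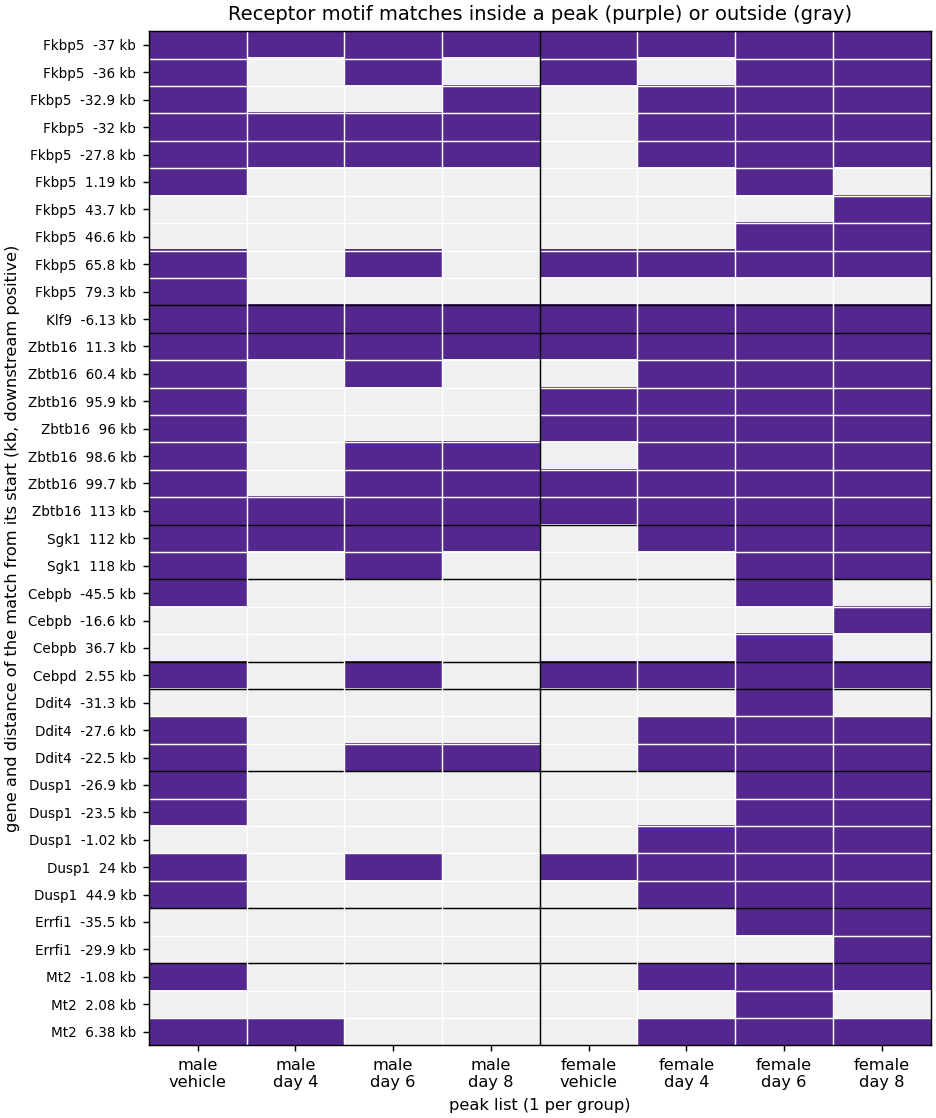
Matches to the extended motif near the 10 genes (37 rows, with gene and distance from its start in kb) that lay in a peak (purple) or outside the peaks (gray) of each of the 8 lists (columns). The rows of Fkbp5 at -37.0 kb, Klf9 at -6.13 kb and Zbtb16 at 11.3 and 113 kb are purple throughout, and 33 rows are purple at female day 6.

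Another 24 genes that glucocorticoids are known to induce were read the same way. Their starts were in a peak for 22, 13, 14 and 17 genes in the male lists and for 9, 21, 24 and 24 genes in the female lists, in the order vehicle, day 4, day 6 and day 8. The shares of all coding genes in that order were 40.0%, 20.5%, 20.2% and 26.0% in males and 15.2%, 45.9%, 62.7% and 56.3% in females. Of the 24, 5 had a start in a peak of all 8 lists: the clock gene Per1, the transcription factors Foxo1, Bcl6 and Cited2, and Zfp36, which encodes an RNA-binding protein that destabilizes inflammatory transcripts. None had a start in a peak of no list. Among coding genes 6.83% had a start in a peak of all 8 lists and 33.6% in a peak of none. A start in each female prednisone list and not in the female vehicle list was seen for 12 of 24: Per2, Nfkbia, Pdk4, Fbxo32, Klf15, Foxo3, Mt1, Glul, Gadd45a, Arrdc2, Rhob and Lpin1. Among the members 3 of 10 had this pattern (Ddit4, Dusp1 and Mt2), and of 21000 coding genes 6240 did. Klf15, a regulator of amino acid and lipid use in muscle, went from no start peak in the female vehicle list to 368.6, 1312.7 and 990.7 normalized tags at days 4, 6 and 8. Its male values were 100.9 for vehicle, none at days 4 and 6, and 54.2 at day 8. For scale, the median constant start was 67.4, 266 and 157 normalized tags at female days 4, 6 and 8. It was 67.4 in the male vehicle list and 33.7 at male day 8.

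With a fold over input of at least 4, the starts of 2 members, Klf9 and Sgk1, were in a peak at male day 6 in place of 6. Ddit4 was then in none in the male vehicle and male day 8 lists, and Zbtb16 in none in the female vehicle list. When every list was reduced to the 17482 peaks with most tags, Fkbp5 lost its start peak at female day 8. The shares of coding genes under these settings are not given here.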

How the data were processed

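H3K27ac ChIP-Seq of isolated quadriceps myofibers was analyzed from 1 peak list for each of 8 groups, made from 16 H3K27ac libraries with 8 inputs. Per the study's methods, reads were trimmed with homerTools, aligned to mm10 with Bowtie2, and peaks were called with HOMER findPeaks in histone style at a fold over input of at least 2. The submitters' processing notes name Bowtie2 2.2.6, TopHat2 2.1.0 and HOMER. The way in which both libraries entered a list is not given in the sources used here, so values have no replicate error and no test was made. The deposited signal, the normalized tag count, is tags per 10 M (1 M is 1000000 tags). The authors also deposited tag counts in 2 lists, the findPeaks score and the fold (ratio) over input, and their p-value columns were not used. Recovered depth was 7.52 to 50.5 M tags. Peaks were joined to 21000 coding genes of RefSeq by 1 bp of overlap with the gene or a window of 50 kb around a start. Exact Poisson intervals at 95% cover counting error only. Motifs were read from the mm10 reference, and promoters from RefSeq (GRCm38.p6), which matched 8 of 10 members. Scripts ran under Python 3.11.15 with pysam 0.24.0, scipy 1.17.1, pandas 2.3.3, numpy 2.4.6 and matplotlib 3.10.9, and were tested on simulated data. All 10 members are named. Of the other 24 glucocorticoid-induced genes, those in all or no lists, or in each female prednisone list but not in female vehicle, are named. The members and lists were chosen with earlier results of these data known. Alternatives numbered 13, and 4 more were added after seeing the data.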

Additional observations from a re-analysis of the deposited data

Results flagged for a closer look

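From vehicle to day 4 the sexes moved in opposite directions in 3 measures, and none of these differences was tested because each group had 1 list. Peaks near the 10 glucocorticoid-induced genes fell from 173 to 68 in number in males and rose from 74 to 121 in females. The whole lists moved the same way, from 87600 to 17482 peaks in males and from 38861 to 67503 in females. So did their depth, from 31.6 to 7.52 M tags in males and from 27.5 to 49.0 M in females. The part of depth in these differences, that of Mt2 included, was not tested. As a share of its list the number went from 0.197% to 0.389% in males and from 0.190% to 0.179% in females. In lists of equal length it was 72 and then 68 in males and 59 and then 51 in females, so the opposite movement of the peak counts was not seen there. Members with a start in a peak numbered 8 and then 7 in males, and 5 and then 8 in females, as they also did in lists of equal length. Over all coding genes the share in the full lists went from 40.0% to 20.5% in males and from 15.2% to 45.9% in females. The direction was thus that of the whole lists. The share of coding genes in lists of equal length is not given here. Mt2 was the 1 member that left a peak in males and entered one in females: its start held 72.7 normalized tags in the male vehicle list with none at male day 4, and 39.4 at female day 4 with none in the female vehicle list. Over all coding genes the same opposite move was seen for 2758 of 21000, or 13.1%.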

How the results depend on the processing

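No paired analysis was possible because the lists carry no values per library, and for the same reason no replicate could be left out. Of 128 values recomputed, 98 stayed within 1.5 times the reported count, and the cause of the other 30 was not tested beyond the smaller or larger sets each setting makes. At a fold over input of at least 4, members with a start in a peak at male day 6 numbered 2, peaks near members 109 for male vehicle, 53 at male day 6 and 33 at male day 8, new peaks at male day 4 24, and extended-motif matches in peaks at male day 6 numbered 8. With every list cut to 17482 peaks, peaks near members numbered 72 for male vehicle and 68 at male day 4, and 59 for female vehicle and 51, 62 and 52 at female days 4, 6 and 8, so the female number fell from vehicle to day 4 in place of rising. The female prednisone lists then had 21, 31 and 26 new ones. A window of 10 kb gave 90, 44 and 37 peaks for male vehicle, day 4 and day 8 and 67, 86 and 70 at female days 4, 6 and 8, with 7 new at male day 4 and 43, 60 and 53 new in females. A window of 100 kb gave 270 and 89 for male vehicle and day 8, and 113, 199 and 290 for female vehicle, day 4 and day 6. Peaks nearest to a member's start numbered 98 at female day 8. Per kb of peak, 2 members were above the median start in the female vehicle list in place of 4.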
